A study of Mus musculus with 9 samples.

Results

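The genes described here are the 244 protein-coding genes whose mean level was highest at day 4 when calvarial osteoblasts from newborn mice were followed over a week of differentiation. They were selected on their measured levels: a gene was kept when its mean at day 4 was at least 2 RPKM, at least 1.5 times its mean at day 0 and at least 1.5 times its mean at day 7. RPKM, reads scaled by the length of the gene model and by the reads of the library, is a level per length, so it can be compared between genes. The 244 genes were 2.55% of the 9581 protein-coding genes with a day 4 mean of at least 2 RPKM, out of 21613 protein-coding genes and 40526 genes in all. Because these levels chose the genes, every comparison of day 4 with another stage is a description without a test. The comparison of day 7 with day 0 carries a test, since the rule set no limit on it, although both means entered the rule.

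The study profiled RNA from C57BL/6 calvarial cells (C57BL/6J, wild type or ColI-GFP, in the methods), the mesenchymal cells released by enzyme digestion from the skull vault of pups, labelled as postnatal day 2-3 cells. They were grown to confluence and taken before differentiation (day 0) or after 4 or 7 days in mineralization medium, which holds ascorbic acid and β-glycerol phosphate and was changed daily. Each stage had 3 libraries of ribosomal RNA-depleted total RNA, given as biological replicates, with no genotype or drug that differs between stages. Before RNA extraction, mineralized cultures were taken up with collagenase I and then trypsin and non-mineralized ones with trypsin only, and the labels do not give the handling per library, so handling and stage cannot be told apart. Day 4 lies in tables of its own and was sequenced to 32820610 to 37306090 reads on genes per library, against 7741204 to 15622755 at day 0 and day 7, so stage, table and depth cannot be told apart either. RNA of the ribosomal repeat loci took 17.6% of the reads in day 0 replicate 3 and 11.2% in day 7 replicate 2, against 0.158% to 4.31% elsewhere, and 7.95% of the reads of day 7 replicate 3 lay on the single gene Plekhh2. When both of these libraries rich in ribosomal repeat RNA were left out, 225 genes met the rule, 211 of them among the 244.

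Osteoblasts arise from mesenchymal progenitors that stop dividing, lay down a collagen-rich matrix and then mineralize it. Between these phases the cells respond to their own secreted ligands, to the stiffening matrix and to the load of protein passing through the endoplasmic reticulum. Immediate early genes are the transcription factors and feedback regulators that cells switch on within minutes of a growth factor, of stretch or of being handled, without new protein synthesis. Many of their mRNAs are short-lived, so that their level follows recent signalling.

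Reads on the 244 genes made up 1.77% to 2.26% of each day 0 library, 5.24% to 5.80% of each day 4 library and 2.87% to 3.42% of each day 7 library. In bulk RNA, fewer cells of a type and less RNA per cell cannot be told apart. The median peak ratio, the day 4 mean over the higher of the other means, was 1.82, and 82 genes reached 2, 22 reached 3 and 3 reached 5. Levels at day 4 were spread widely, with 25 genes at 100 RPKM or more, 67 under 5 RPKM and a median of 11.95 RPKM. For 223 genes every day 4 library lay above each of the other 6 libraries, where 8.44% of all 9581 genes did so, and nothing is read from this because the rule used the same values. Just inside the limit were Aplp1, Arap2 and Nrep, with peak ratios of 1.503, 1.503 and 1.505, and just outside it Maff, Slc25a37 and Atp2b4, with 1.492, 1.493 and 1.498. By the same limits 604 protein-coding genes were highest at day 0, 207 at day 7 and 54 lowest at day 4. Under the other scalings and without each library in turn, 12 settings in all, 170 of the 244 genes met the rule every time.

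**Figure D1:**
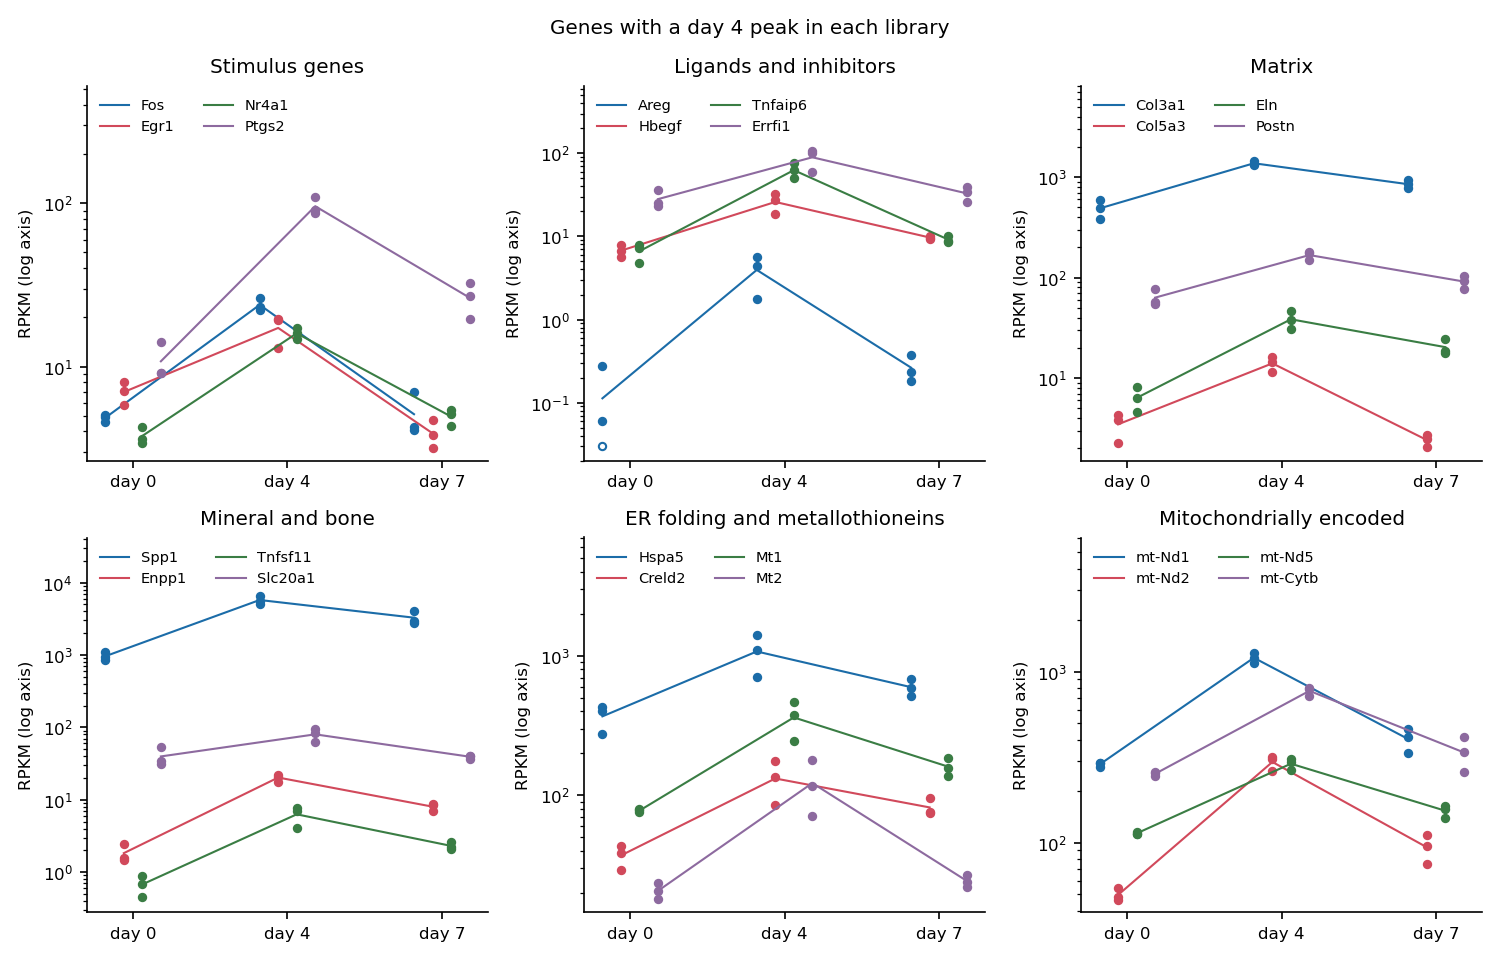
Level in RPKM (log axis) of 24 genes with a day 4 peak in the 3 libraries of each stage. Points are single libraries, lines join the stage means, and the open point for Areg marks a library at 0, drawn at the foot of the axis. The day 4 points of most genes lie above all other points of the same colour, and the fall by day 7 ranges from nearly the day 0 level (Fos, Mt2) to a level well above it (Spp1, Enpp1).

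Immediate early genes held the largest share of day 4 peaks among the lists with 10 or more genes over the RPKM limit. Of the 32 genes of the immediate early and dissociation list with a day 4 mean of at least 2 RPKM, 17 were peak genes, or 53.1% against 2.55% of all genes. Over the whole list the median log2 ratio of day 4 to day 0 was 1.12 and that of day 4 to day 7 was 0.64, while the medians over all 9581 genes were −0.06 and 0.05, each with 0.5 RPKM added to the means. The list also holds genes known to rise when cells are taken off their dish with enzymes, and the part of that handling in the result was not tested. Fos encodes the partner of Jun proteins in the AP-1 transcription factor. It lies at chr12:85473890-85477273 of GRCm38, forward strand, and its level was 5.03, 4.59 and 4.94 RPKM in the day 0 libraries, 23.2, 22.3 and 26.1 at day 4 and 6.94, 4.10 and 4.27 at day 7. All 3 day 4 libraries lay above all others, and the libraries of day 0 and day 7 overlapped. Egr1, a zinc finger factor induced by serum, had 5.79, 7.05 and 8.09 RPKM at day 0, 19.5, 13.0 and 19.2 at day 4 and 4.73, 3.15 and 3.81 at day 7. It was the only gene of the list among the peak genes that ended below its starting level by the test, with a log2 ratio of day 7 to day 0 of −0.83 on the log2(CPM + 0.5) scale (standard error 0.18, limma adjusted p = 2.66e-04). Egr2 also peaked, at a lower level, with 2.25, 2.66 and 2.32, then 8.35, 9.78 and 10.1, then 2.69, 1.82 and 2.00 RPKM. Its day 0 and day 7 libraries overlapped, and the test did not call it. Egr3 was lower still, at 2.32 ± 0.546 RPKM at day 4 (SD, n = 3). The orphan nuclear receptor Nr4a1 averaged 3.76 ± 0.454 RPKM before differentiation, 16.0 ± 1.251 at day 4 and 4.94 ± 0.580 at day 7 (± SD over 3 libraries), and its relative Nr4a2 had a peak ratio of 2.16.

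Other members of the AP-1 family peaked less sharply. Junb had 41.0, 30.1 and 24.9 RPKM at day 0, 83.8, 83.6 and 95.1 at day 4 and 59.5, 36.5 and 42.7 at day 7, without overlap between day 4 and the rest. Fosl2 and Fosl1 sat near the limit of the rule, with peak ratios of 1.54 and 1.55, and met it in 5 and 7 of the 12 settings. Among the 15 genes of the list that are not peak genes, Atf3 and Maff missed the day 7 limit narrowly, with peak ratios of 1.48 and 1.49, Myc reached 1.39 and Jun 1.30. Ier3, Klf4 and Btg1 had their highest mean at day 7, and the heat shock gene Hsph1 went from 8.97 RPKM at day 0 to 3.90 at day 4. The heat shock genes Hspa1b and Dnajb1 had peak ratios of 0.963 and 0.936.

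**Figure D2:**
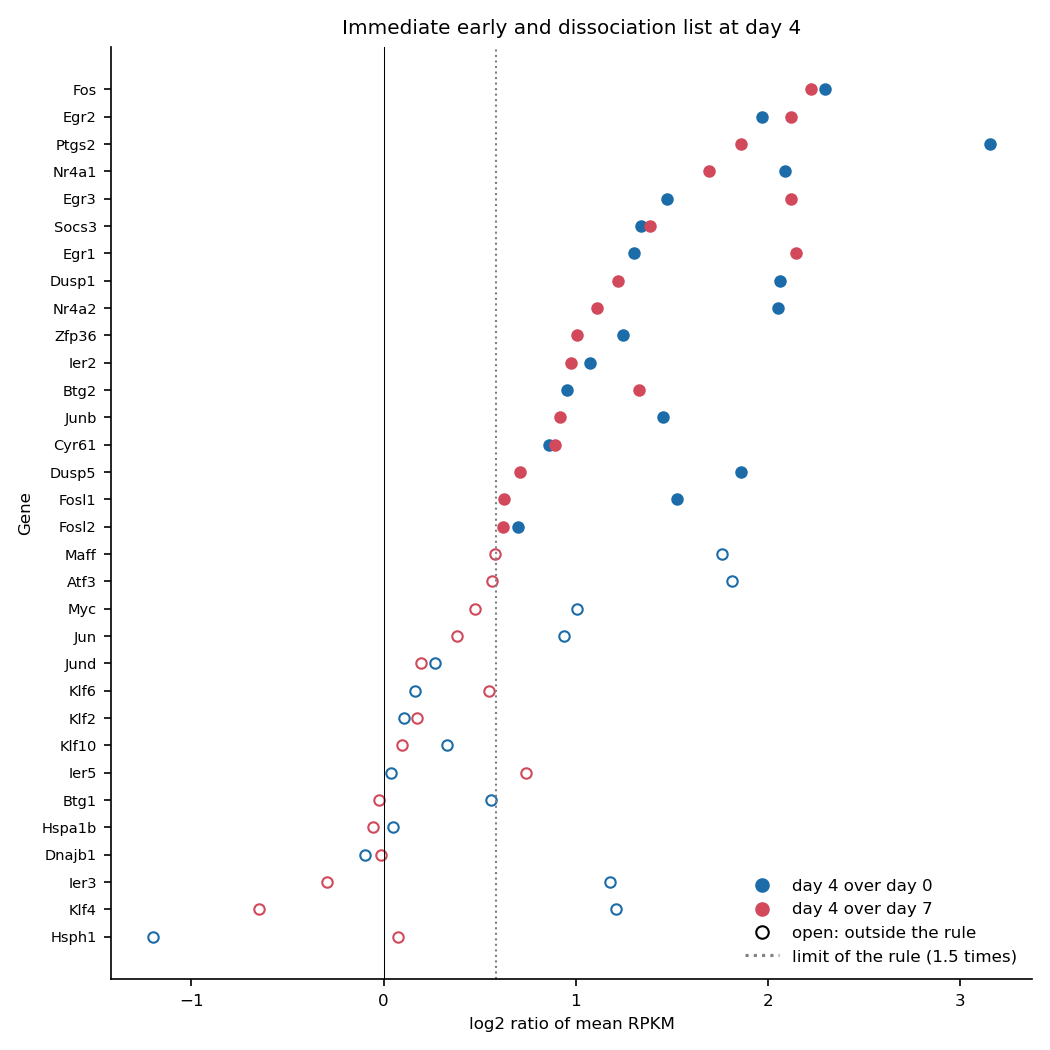
Log2 ratio of the day 4 mean RPKM to the day 0 mean (blue) and to the day 7 mean (red) for the 32 genes of the immediate early and dissociation list with a day 4 mean of at least 2 RPKM, ordered by peak ratio. Filled points are the 17 genes that met the rule, open points the others, and the dotted line is the limit of 1.5 times. Both points of each of the 17 genes lie beyond the line, and Maff and Atf3 fall just short on day 7.

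Some feedback inhibitors of signalling were peak genes and others were not. Dusp1, a phosphatase that switches off MAP kinases, had 4.68, 5.08 and 3.97 RPKM at day 0, 16.6, 19.4 and 21.5 at day 4 and 9.88, 7.43 and 7.38 at day 7. Every day 4 library was above every day 7 library, and day 7 in turn was above day 0 without overlap. Dusp5 and Dusp6, phosphatases for ERK, reached day 4 means of 11.1 ± 3.48 and 36.2 ± 5.86 RPKM (± SD over 3 libraries), with peak ratios of 1.63 and 1.99. Spry4, an inhibitor of receptor tyrosine kinase signalling, and the ERK-responsive factor Etv4 had peak ratios of 1.69 and 2.69. These 4 were the peak genes among the 20 genes of the FGF signalling list over the limit, where the inhibitors Spry1, Spry2, Spred1 and Spred2 had peak ratios of 1.15, 1.248, 1.02 and 0.928. Socs3, the inhibitor of JAK and STAT signalling, averaged 13.6 ± 2.39 RPKM before differentiation, 34.3 ± 2.12 at day 4 and 13.1 ± 2.80 at day 7 (± SD over 3 libraries). Zfp36, which hastens decay of short-lived mRNAs, and Btg2, an antiproliferative immediate early gene, had peak ratios of 2.01 and 1.94. Errfi1, a feedback inhibitor of the EGF receptor, had 35.8, 25.0 and 23.4 RPKM at day 0, 107, 59.6 and 102 at day 4 and 39.2, 25.7 and 33.8 at day 7. Its lowest day 4 library, replicate 2, was still above the highest library of the other stages.

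Ligands of the EGF receptor held the largest peak, and 7 of the 17 angiogenic and growth factors of their list over the limit were peak genes. Areg encodes amphiregulin and lies at chr5:91139599-91148432 of GRCm38, forward strand. Its identifier carries another symbol in the table of day 0 and day 7, while the day 4 table and the annotation name it Areg. The level was 0.0595, 0.279 and 0 RPKM at day 0, 5.69, 1.74 and 4.42 at day 4 and 0.183, 0.234 and 0.373 at day 7, a peak ratio of 14.98. The size of this ratio is uncertain, since Areg had 0 to 4 reads in the day 0 libraries and as few as 3 in a day 7 library. It was too low to enter the test of day 7 against day 0. Day 4 lay above the other stages in every library, although replicate 2 was well below the other day 4 libraries. Ereg, epiregulin, lies 45953 bp from Areg and had 1.00, 0.788 and 1.16 RPKM at day 0, 9.40, 3.78 and 8.75 at day 4 and 1.47, 2.40 and 2.34 at day 7. Hbegf, the heparin-binding member of the family, had 7.93, 5.64 and 6.64 RPKM at day 0, 31.9, 18.5 and 27.5 at day 4 and 10.2, 9.59 and 9.30 at day 7. For all 3 ligands replicate 2 was the lowest day 4 library. In limma Ereg stood higher at day 7 than at day 0 (log2 ratio of day 7 to day 0 = 0.97, standard error 0.22, adjusted p = 4.57e-04), as did Hbegf (0.52, adjusted p = 0.0195), whose call ended without day 0 replicate 2 and without any one of the day 7 libraries.

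Ptgs2, the inducible cyclooxygenase that makes prostaglandins, is also on the immediate early list. It had 14.1, 9.07 and 9.13 RPKM at day 0, 87.8, 90.6 and 109.6 at day 4 and 32.5, 27.2 and 19.5 at day 7, with no overlap between any of the stages, and the rise from day 0 to day 7 passed the threshold (log2 ratio of day 7 to day 0 = 1.29, standard error 0.18, limma adjusted p = 5.58e-08). Tnfaip6, a secreted hyaluronan-binding protein induced by inflammatory signals, had the second largest peak ratio, 6.83, with 7.80, 7.28 and 4.83 RPKM at day 0, 49.9, 75.7 and 62.2 at day 4 and 8.90, 10.1 and 8.53 at day 7. The chemokine Cxcl14 averaged 33.1 ± 9.86 RPKM before differentiation, 104 ± 5.84 at day 4 and 29.2 ± 6.20 at day 7 (± SD over 3 libraries), whereas Cxcl1 reached only 2.13 ± 0.230 RPKM at day 4. Of the 41 chemokine, cytokine and receptor genes over the limit 10 were peak genes, and none of the 18 genes of the interferon-stimulated list was. That list is not complete, and an interferon-activated gene outside it was a peak gene.

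The starts of these genes carry different letters. The stretches below show bases upstream of the RefSeq start, read 5′ to 3′ on the coding strand of GRCm38.p6, for the gene with the largest peak ratio (Areg), for the best known immediate early gene (Fos) and for Btg2, which shares a motif with Areg. Capitals in Areg mark TGACGTCA, the palindromic cyclic AMP response element, 61 bases before the start, and TATAAA, the TATA box, 31 bases before it. In Fos they mark TATAAA 33 bases before the start, and in Btg2 TGACGTCA 166 bases before it. Searched on both strands in 300 bases around each of the 32851 RefSeq starts, TGACGTCA occurred in 1.79% and TATAAA in 13.6%. RefSeq starts were matched for 172 of the 244 genes (70.5%), too few for a share over the peak genes to be given, and a match describes letters, not binding.
Areg, chr5:91139479-91139598, forward strand: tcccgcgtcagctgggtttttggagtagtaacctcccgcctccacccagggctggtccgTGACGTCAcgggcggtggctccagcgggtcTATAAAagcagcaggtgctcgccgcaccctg
Fos, chr12:85473770-85473889, forward strand: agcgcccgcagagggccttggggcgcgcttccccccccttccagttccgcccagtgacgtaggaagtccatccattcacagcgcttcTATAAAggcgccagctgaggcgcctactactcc
Btg2, chr1:134079216-134079335, reverse strand: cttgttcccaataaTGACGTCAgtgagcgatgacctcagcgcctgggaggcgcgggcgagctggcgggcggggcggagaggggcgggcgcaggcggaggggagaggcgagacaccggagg

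Growth factors of the TGF-beta family and their targets formed a further group, with 4 peak genes among the 20 of the list over the limit. Inhba, the subunit of activin A, had 14.98, 13.7 and 13.9 RPKM at day 0, 61.3, 57.4 and 68.9 at day 4 and 39.9, 33.7 and 27.5 at day 7, so that the 3 stages were fully separated. Ctgf, a matricellular protein also named Ccn2, had 83.5, 49.0 and 56.6 RPKM at day 0, 148, 74.1 and 129 at day 4 and 49.8, 35.4 and 31.3 at day 7. Its day 4 replicate 2 lay below day 0 replicate 1, so the stages overlapped. The fall of Ctgf from day 0 to day 7 passed the threshold (log2 ratio of day 7 to day 0 = −0.69, standard error 0.17, limma adjusted p = 0.00167), but not with DESeq2, with quality weights or with both libraries rich in ribosomal repeat RNA left out. Its relative Cyr61, or Ccn1, peaked at 285 ± 46.8 RPKM (SD, n = 3). The tissue and urokinase plasminogen activators Plat and Plau reached 62.1 ± 16.4 and 23.3 ± 1.76 RPKM at day 4, with peak ratios of 2.76 and 1.55, and Plau met the rule in 8 of the 12 settings.

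In the list of Wnt antagonists and targets 5 of 18 genes were peak genes, in that of BMP ligands, antagonists and targets 1 of 25 was, and none of the 18 Wnt ligands and receptors over the limit was. The secreted antagonists Dkk1, Frzb and Wif1 are no peak genes and had their highest mean at day 7, of 26.3, 16.4 and 42.9 RPKM. Sfrp4, a secreted Wnt antagonist, had the largest rise to day 7 of all peak genes. It lies at chr13:19623104-19632994 of GRCm38, forward strand, and had 0.650, 0.524 and 0.221 RPKM at day 0, 38.4, 31.9 and 41.5 at day 4 and 16.3, 17.8 and 14.1 at day 7, and its log2 ratio of day 7 to day 0 was 4.49 (standard error 0.22, limma adjusted p = 3.52e-22). Grem1, gremlin, which binds BMPs, had 3.52, 3.61 and 3.30 RPKM at day 0, 66.9, 86.4 and 86.1 at day 4 and 42.8, 42.9 and 37.0 at day 7 (log2 ratio of day 7 to day 0 = 3.51, standard error 0.16, limma adjusted p = 4.47e-24). For both genes the stages were fully separated, and at day 7 Sfrp4 kept 42.4% and Grem1 49.1% of the rise from day 0 to day 4. Sostdc1, which antagonizes both pathways, went the other way. It had 4.68, 4.44 and 5.75 RPKM at day 0, 11.96, 6.59 and 11.4 at day 4 and 2.88, 1.34 and 1.86 at day 7, below day 0 in every library (log2 ratio of day 7 to day 0 = −1.23, standard error 0.23, limma adjusted p = 2.38e-05). Sfrp1 also fell below its starting level (−1.05, limma adjusted p = 4.74e-04), but 1 of its day 0 libraries was above the day 4 libraries and it met the rule in 8 of the 12 settings.

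Structural matrix genes contributed some of the highest levels. Of 30 collagen genes over the limit 5 were peak genes, Col5a3, Col7a1, Col3a1, Col6a2 and Col8a1, beside 8 of 72 other matrix glycoproteins and proteoglycans. Col3a1, the chain of type III collagen, lies at chr1:45311538-45349706 of GRCm38, forward strand, and had 488, 588 and 384 RPKM at day 0, 1351, 1311 and 1450 at day 4 and 927, 773 and 844 at day 7. Its 3 stages did not overlap, and the rise from day 0 to day 7 passed the threshold (log2 ratio of day 7 to day 0 = 0.82, standard error 0.21, limma adjusted p = 0.00165) except when genes with any reads were tested. Col5a3, a chain of type V collagen, had the sharpest peak of the group, 4.04, with 3.81, 4.33 and 2.24 RPKM at day 0, 11.4, 16.3 and 14.3 at day 4 and 2.73, 2.08 and 2.45 at day 7. Col7a1, which forms anchoring fibrils, averaged 2.31 ± 0.882 RPKM before differentiation, 12.9 ± 2.31 at day 4 and 6.57 ± 1.47 at day 7 (± SD over 3 libraries). Col6a2 and Col8a1 were near the limit, with peak ratios of 1.57 and 1.55, and met the rule in 9 and 8 of the 12 settings.

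Among the other matrix genes, Eln, elastin, had 6.27, 8.12 and 4.60 RPKM at day 0, 31.0, 46.2 and 38.0 at day 4 and 24.4, 17.7 and 18.7 at day 7, with the stages fully separated (log2 ratio of day 7 to day 0 = 1.67, standard error 0.18, limma adjusted p = 1.62e-10). Mfap4, a microfibril-associated protein, was not called between day 0 and day 7, and the means of days 0, 4 and 7 were 34.4 ± 6.72, 70.0 ± 3.39 and 34.0 ± 6.77 RPKM (± SD over 3 libraries). Postn, periostin of the periosteum and sutures, had 54.9, 76.9 and 57.4 RPKM at day 0, 178, 149.6 and 174 at day 4 and 104, 77.7 and 91.6 at day 7, and Dpt, dermatopontin, averaged 1.82 ± 0.721 RPKM before differentiation, 13.4 ± 2.39 at day 4 and 6.82 ± 0.856 at day 7 (± SD over 3 libraries). Mmp3, a matrix metalloproteinase, was low and fell below its starting level, from 1.11, 0.930 and 1.36 RPKM at day 0 through 3.20, 2.52 and 4.41 at day 4 to 0.407, 0.417 and 0.178 at day 7 (log2 ratio of day 7 to day 0 = −1.22, standard error 0.28, limma adjusted p = 5.14e-04). None of the 26 integrins, cadherins and connexins over the limit was a peak gene.

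The list of mineralization and phosphate genes held 5 peak genes among 20 over the limit. Of 28 osteoblast markers over the limit only Spp1 and Enpp1 were peak genes, and 23 were higher at day 7 than at day 0 by limma, against 12.6% of all genes tested. The summed level of all 30 markers was 7529 to 8953 RPKM at day 0, 18695 to 21664 at day 4 and 20101 to 24699 at day 7. Spp1, osteopontin, a phosphoprotein of mineralized matrix, had the highest day 4 level of all peak genes. It lies at chr5:104435118-104441050 of GRCm38, forward strand, and had 1104, 842 and 937 RPKM at day 0, 5086, 6496 and 5656 at day 4 and 4058, 2974 and 2792 at day 7. The 3 stages did not overlap (log2 ratio of day 7 to day 0 = 1.76, standard error 0.19, limma adjusted p = 1.41e-10). Upstream of its first RefSeq start the letters of the Runx site, TGTGGTT or its reverse complement, were found 129 bases before the start, as they were in 5.27% of all promoters, and are in capitals here.
Spp1, chr5:104434931-104435050, forward strand: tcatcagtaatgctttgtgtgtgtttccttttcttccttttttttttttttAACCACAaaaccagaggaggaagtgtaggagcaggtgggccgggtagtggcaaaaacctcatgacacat

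Enpp1, which makes the mineralization inhibitor pyrophosphate, lies 39231 bp from Ctgf on chromosome 10. It had 2.44, 1.49 and 1.56 RPKM at day 0, 17.8, 22.2 and 20.9 at day 4 and 8.44, 8.71 and 6.95 at day 7, again fully separated (log2 ratio of day 7 to day 0 = 2.13, standard error 0.17, limma adjusted p = 2.21e-14). Slc20a1, a sodium phosphate transporter, had 54.0, 34.2 and 30.9 RPKM at day 0, 94.0, 62.1 and 84.2 at day 4 and 40.2, 37.1 and 40.7 at day 7, so that day 0 and day 7 overlapped. Tnfsf11 encodes RANKL, the cytokine with which osteoblasts and osteocytes drive osteoclast formation. It had 0.893, 0.449 and 0.693 RPKM at day 0, 7.73, 4.10 and 7.06 at day 4 and 2.59, 2.22 and 2.12 at day 7, where replicate 2 was the lowest day 4 library (log2 ratio of day 7 to day 0 = 1.52, standard error 0.24, limma adjusted p = 1.85e-06). Erg, an ETS factor listed here among endothelial genes, averaged 4.07 ± 0.635 RPKM before differentiation, 15.9 ± 2.19 at day 4 and 9.02 ± 0.458 at day 7 (± SD over 3 libraries), while the endothelial markers Pecam1, Cdh5 and Kdr were at 0.117 RPKM or less in every library.

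Chaperones of the endoplasmic reticulum formed a small group with high levels. Hspa5, the chaperone BiP, lies at chr2:34771970-34777547 of GRCm38, forward strand, and had 432, 401 and 273 RPKM at day 0, 710.2, 1418 and 1099 at day 4 and 516, 589 and 686 at day 7. Creld2, an endoplasmic reticulum stress-inducible disulfide isomerase, had 43.7, 38.4 and 29.2 RPKM at day 0, 85.8, 175 and 136 at day 4 and 74.5, 76.1 and 95.5 at day 7, with the lowest day 4 library below the highest of day 7. Hsp90b1, also known as GRP94, had 214, 222 and 156 RPKM at day 0, 243, 423 and 328 at day 4 and 219.8, 211 and 229 at day 7. It was near the limit and met the rule in 7 of the 12 settings. Derl3, which takes part in the removal of misfolded proteins, spread most at day 4, with 3.19, 12.7 and 6.64 RPKM, and had 0.609 ± 0.126 RPKM at day 0 and 1.63 ± 1.29 at day 7 (± SD over 3 libraries). For all 4 genes day 4 replicate 1 was the lowest and replicate 2 the highest day 4 library. Of the 38 genes of the list of folding and secretory genes 35 had a higher mean at day 4 than at day 0, against 4141 of all 9581 genes, and 21 were higher at day 7 than at day 0 by limma, against 12.6% of all genes tested. Only Hspa5, Creld2 and Hsp90b1 were peak genes, and Herpud1, Dnajb9 and Creb3l1 were highest at day 7.

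The 4 chaperone and quality control genes share an upstream sequence that the rule did not use. Each holds the endoplasmic reticulum stress element, CCAAT and CCACG with 9 bases of any kind between them, on one strand within 250 bases of its RefSeq start, and of the 32851 promoters searched 39 (0.119%) hold it. It is also in promoters of Calr, Canx, Dnajc3, Pdia6 and Syvn1, genes of the same list that are not peak genes. This motif was chosen after the genes were seen. The stretches below show it in capitals, read 5′ to 3′ on the coding strand, so that it appears as CGTGG and ATTGG where the other strand holds it.
Hspa5, chr2:34772020-34772048, forward strand: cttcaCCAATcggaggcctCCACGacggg
Creld2, chr15:88819486-88819585, forward strand: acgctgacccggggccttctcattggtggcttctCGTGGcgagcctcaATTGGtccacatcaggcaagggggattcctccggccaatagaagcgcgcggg
Hsp90b1, chr10:86705515-86705594, reverse strand: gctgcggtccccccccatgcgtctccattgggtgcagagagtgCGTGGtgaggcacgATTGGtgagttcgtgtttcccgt
Derl3, chr10:75893198-75893297, forward strand: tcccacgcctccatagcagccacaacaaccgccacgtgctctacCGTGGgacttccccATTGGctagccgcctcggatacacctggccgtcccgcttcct

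The metallothioneins Mt1 and Mt2, neighbours 5514 bp apart on chromosome 8 that bind zinc and copper, moved with the chaperones among the day 4 libraries. Mt2 had 20.7, 18.0 and 23.5 RPKM at day 0, 71.1, 180.3 and 116 at day 4 and 24.1, 27.1 and 22.1 at day 7. Mt1 had 78.1, 79.9 and 75.6 RPKM at day 0, 247, 464 and 376 at day 4 and 186, 158 and 138 at day 7. Day 4 was above the other stages in every library of both genes. The day 0 and day 7 libraries of Mt2 overlapped, and Mt1 was higher at day 7 than at day 0 (log2 ratio of day 7 to day 0 = 1.03, standard error 0.16, limma adjusted p = 8.31e-07). Since 45.8% of the 50-base stretches of Mt2 also occur in other transcripts, the value for this gene is uncertain. They were the only peak genes among the 22 antioxidant genes over the limit. Apln, which encodes the peptide hormone apelin, and Stc1, stanniocalcin, both on the list of hypoxia-responsive genes, had the same order of day 4 libraries, with 18.1, 38.0 and 29.6 and 2.89, 5.75 and 4.38 RPKM. Of the 47 genes on that list over the limit 3 were peak genes, against 2.55% of all, and 36 were higher at day 7 than at day 0 by limma, against 12.6% of all genes tested.

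**Figure D3:**
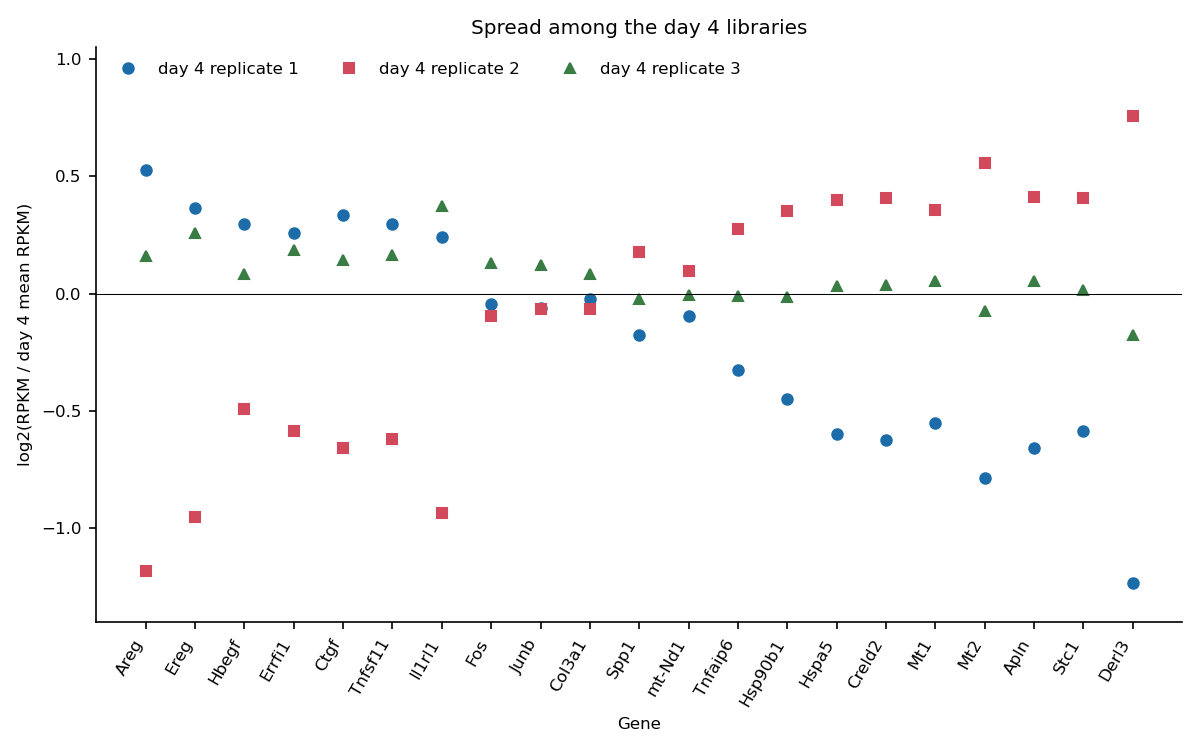
Log2 ratio of each day 4 library to the mean of the 3 day 4 libraries for 21 genes with a day 4 peak, 1 symbol per library. The genes are a chosen set, arranged by the order of their libraries. Replicate 2 (squares) lies lowest for the genes from Areg to Il1rl1 and highest for those from Spp1 to Derl3, where replicate 1 (circles) lies lowest, and the libraries lie close together for Fos, Junb and Col3a1.

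Hormone, receptor and contractile genes were represented by a few peak genes each. In the IGF system 3 of 17 genes were peak genes, Igf1, its binding protein Igfbp3 and Stc1. Igf1, the growth factor, had 6.78, 8.57 and 5.84 RPKM at day 0, 13.9, 11.1 and 10.9 at day 4 and 8.44, 6.80 and 7.36 at day 7. Igfbp3 was at 17.4, 25.3 and 11.9 RPKM in the day 0 libraries, 55.3, 57.1 and 48.5 at day 4 and 35.4, 24.9 and 30.0 at day 7. In both genes day 4 lay above every other library, and day 0 and day 7 overlapped. By limma Igfbp3 was higher at day 7 (log2 ratio of day 7 to day 0 = 0.77, standard error 0.18, adjusted p = 7.77e-04). Igf1 was not called. Angptl4, an inhibitor of lipoprotein lipase on the lists of angiogenic and of hypoxia-responsive genes, had 1.15, 0.534 and 1.18 RPKM at day 0, 6.29, 3.15 and 6.72 at day 4 and 3.27, 1.71 and 2.22 at day 7, where day 4 replicate 2 lay within the range of day 7 (log2 ratio of day 7 to day 0 = 1.22, standard error 0.24, limma adjusted p = 8.09e-05). Nkd2, an intracellular inhibitor of Wnt signalling, had 2.52, 1.96 and 1.64 RPKM at day 0, 8.55, 5.97 and 8.57 at day 4 and 3.61, 3.48 and 3.37 at day 7, all stages being separate. Among the 40 genes of the G protein coupled receptor list over the limit 6 were peak genes. They include Htr2a, a serotonin receptor, with 2.52, 1.56 and 2.78 RPKM at day 4, and the galanin receptor Galr2, with 1.87, 3.21 and 2.99 RPKM. That list is not complete, since the receptor gene Gipr, also a peak gene, is not on it. Lif, a cytokine of the interleukin 6 family, had 2.07, 2.02 and 1.57 RPKM at day 0, 6.74, 5.97 and 6.39 at day 4 and 3.38, 2.39 and 2.29 at day 7, with the stages separate although the test did not call it. Tagln, an actin-binding protein of contractile cells, was among the highest of the peak genes, with 602, 576 and 472 RPKM at day 0, 786, 872 and 872 at day 4 and 515, 533 and 548 at day 7, but 58.3% of its 50-base stretches occur in other transcripts and an exon overlaps another gene on the opposite strand. Tmem26, a membrane protein, and Csrnp1, a nuclear protein, were low genes with sharp peaks, of 3.62 and 3.48, and the call of Tmem26 as higher at day 7 ended in 8 of 18 alternatives.

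The day 4 libraries differed from each other for part of the peak genes, among them some small named groups. Their highest level was at least 1.5 times the lowest for 63 of the 244 genes. Among these, replicate 2 was lowest for 35 and highest for 24, while replicate 3 was lowest for 4 and highest for 9. All 5 genes of the list of angiogenic and growth factors among them were lowest in replicate 2, and all 3 chaperones and both metallothioneins were highest there. The widest ratios were those of Serpinb2, Derl3 and Tmem178, with 4.65, 3.97 and 3.495 times between the highest and the lowest day 4 library. Replicates of a stage have no order, and what distinguishes the cultures is not given in the labels.

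Genes of the mitochondrial genome made up 5 of the peak genes. mt-Nd1, a subunit of complex I, lies on the mitochondrial chromosome of GRCm38 from 2751 to 3707 and had 291, 277 and 290.3 RPKM at day 0, 1126, 1286 and 1200 at day 4 and 416, 333 and 459 at day 7. mt-Nd2, also of complex I, had 47.9, 54.3 and 46.1 RPKM at day 0, 264, 307 and 317 at day 4 and 110.4, 75.4 and 96.1 at day 7. mt-Cytb, the cytochrome of complex III, had 254, 245 and 258 RPKM at day 0, 805, 716 and 792 at day 4 and 338, 258 and 414 at day 7. The day 4 libraries were close together and above all others for all of them, as they were for mt-Nd4 and mt-Nd5. mt-Co1 and mt-Nd6 were also highest at day 4 but below the limit, with peak ratios of 1.36 and 1.38. Of the 13 protein genes of this genome 5 are listed at 0 in all 9 libraries, among them mt-Co2 and mt-Atp6, and mt-Nd3 stayed under 1 RPKM in every library, so the counted levels do not cover the genome evenly. The genes share 1 small genome and are not independent of each other. By limma mt-Nd2 was higher at day 7 than at day 0 (log2 ratio of day 7 to day 0 = 0.91, standard error 0.16, adjusted p = 1.25e-05), and so was mt-Nd1 (0.48, adjusted p = 0.0152), though not without day 0 replicate 2, day 7 replicate 1 or day 7 replicate 3.

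**Figure D4:**
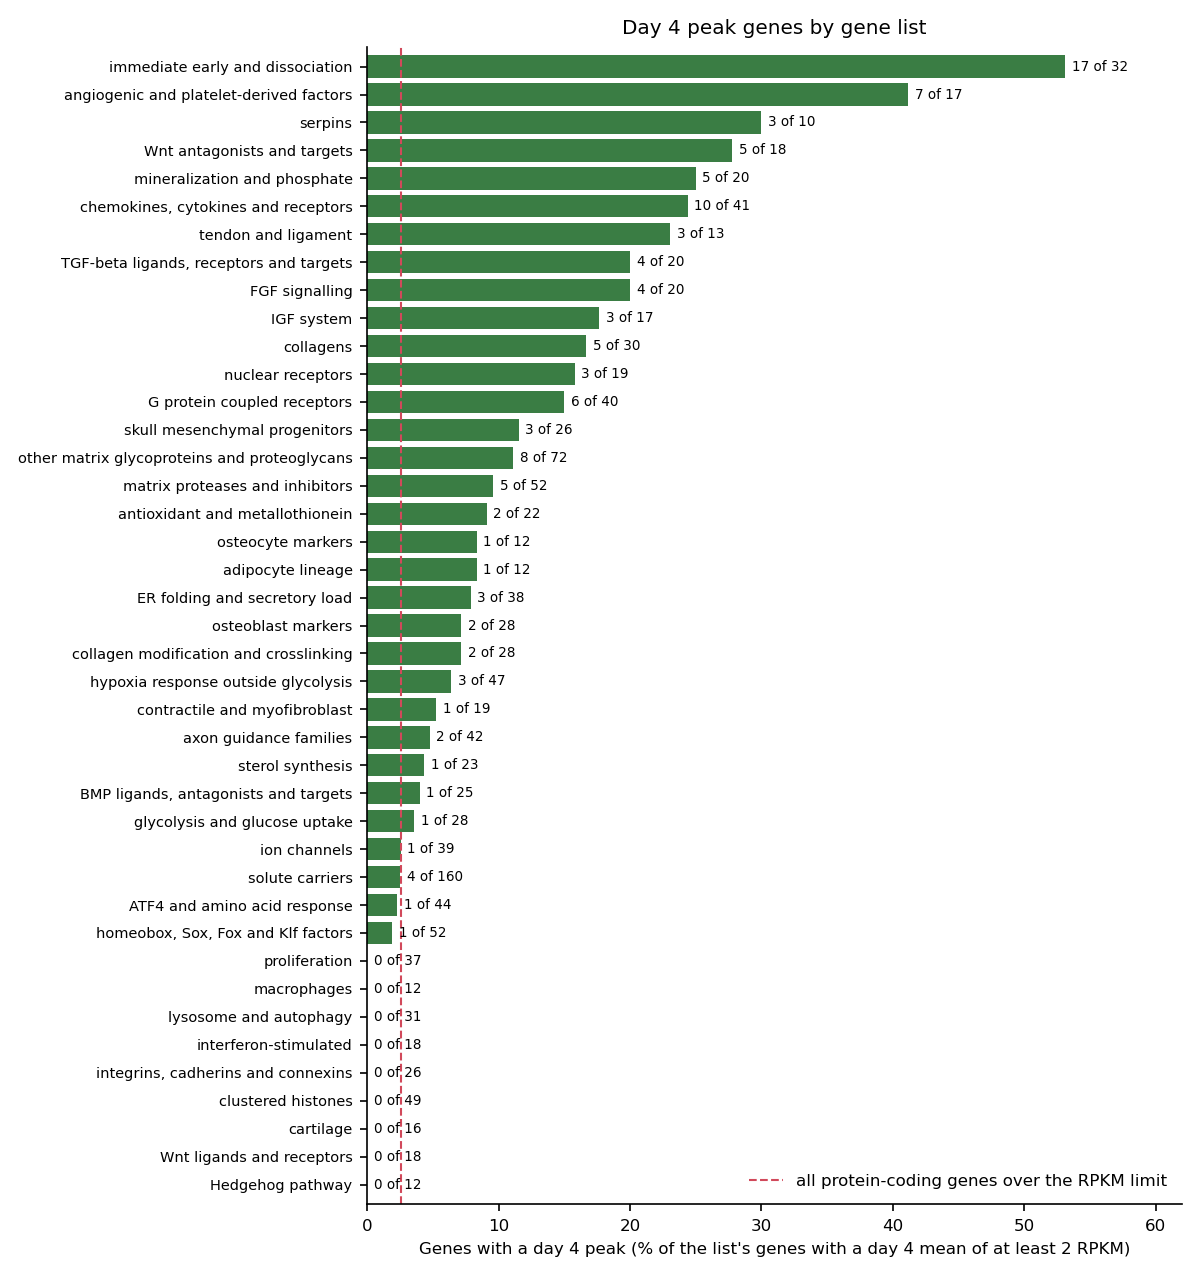
Share of genes with a day 4 peak among the genes of each list with a day 4 mean of at least 2 RPKM, for lists with 10 or more such genes. Bars start at 0, the counts stand at the bar ends, and the dashed line marks the 2.55% of all 9581 genes. The immediate early list reaches 53.1% and 9 lists lie at 0, among them proliferation and Wnt ligands and receptors.

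Among lists not yet counted, 3 of 10 serpins, 3 of 13 tendon and ligament genes, 3 of 19 nuclear receptors and 3 of 26 skull mesenchymal progenitor genes over the limit were peak genes. Of 160 solute carriers 4 were peak genes, of 44 ATF4 targets 1, and of 28 glycolysis and glucose uptake genes 1, the transporter Slc2a6, with overlapping stages. None of the 37 proliferation genes, 49 clustered histones, 31 lysosome and autophagy genes and 12 macrophage genes over the limit was a peak gene. Of the 244 genes 103 stand on at least 1 of the 49 lists and 141 on none. Markers of other cell types moved as well, and their part in the results was not tested. The summed level of the 26 macrophage markers was 78.6 to 127 RPKM at day 0, 132 to 148 at day 4 and 145 to 185 at day 7, and that of the 15 osteoclast markers was 139 to 177, 283 to 291 and 275 to 282. The 34 muscle genes summed to 7.93 to 12.6, 14.5 to 16.97 and 10.8 to 13.5 RPKM. The 20 endothelial genes summed to 16.5 to 21.02, 26.8 to 30.3 and 21.1 to 21.6, and both sums were highest at day 4. The endothelial sum includes the peak gene Erg, with 3.54 to 4.78 RPKM at day 0, 13.6 to 17.9 at day 4 and 8.59 to 9.50 at day 7. Erg was chosen for its day 4 level, so nothing is read from the day 4 height of that sum. In every library 29 muscle genes and 16 endothelial genes were under 1 RPKM, and the haemoglobin gene Hbb-bs was at 0 throughout.

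The question that can be tested is where the peak genes stood at day 7 relative to their start. Of the 244 genes 234 entered the test, and at day 7 limma called 101 of them higher than at day 0, or 43.2%, where 12.6% of the 12712 genes tested were higher. It called 8 lower, or 3.42%, where 18.6% of all genes were lower. The rule admitted no gene whose day 0 or day 7 mean was near or above its day 4 mean. The shares of the peak genes and of all genes are thus not like for like, and the difference between them was not tested. The median log2 fold change was 0.27 over the peak genes and −0.11 over all genes tested, and a scaling by median-of-ratios moves the latter to −0.01. With that scaling 2827 of all genes were higher and 2629 lower, against 1602 and 2369, and of the peak genes 122 were higher and 7 lower. The remaining 125 did not pass the threshold in either direction, which does not show that they were back at their starting level. The 69 genes called higher in the main test and in all of its alternatives include Sfrp4, Grem1, Rgs16, Slitrk6, Stac2, Enpp1, Ptgs2 and Spp1. The number of lower genes depended on 1 library and on the scaling, and was 19 without day 0 replicate 3, 18 when libraries were scaled to their protein-coding reads and 15 with both libraries rich in ribosomal repeat RNA left out, with 7 of the 8 among them each time. Over genes called higher, the mean at day 7 retained a median of 36.0% of the rise from day 0 to day 4, and over all 244 genes 15.4%. These shares are descriptions, since the rule capped the day 7 mean of every gene relative to day 4. The genes called higher were also chosen by their day 7 level.

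**Figure D5:**
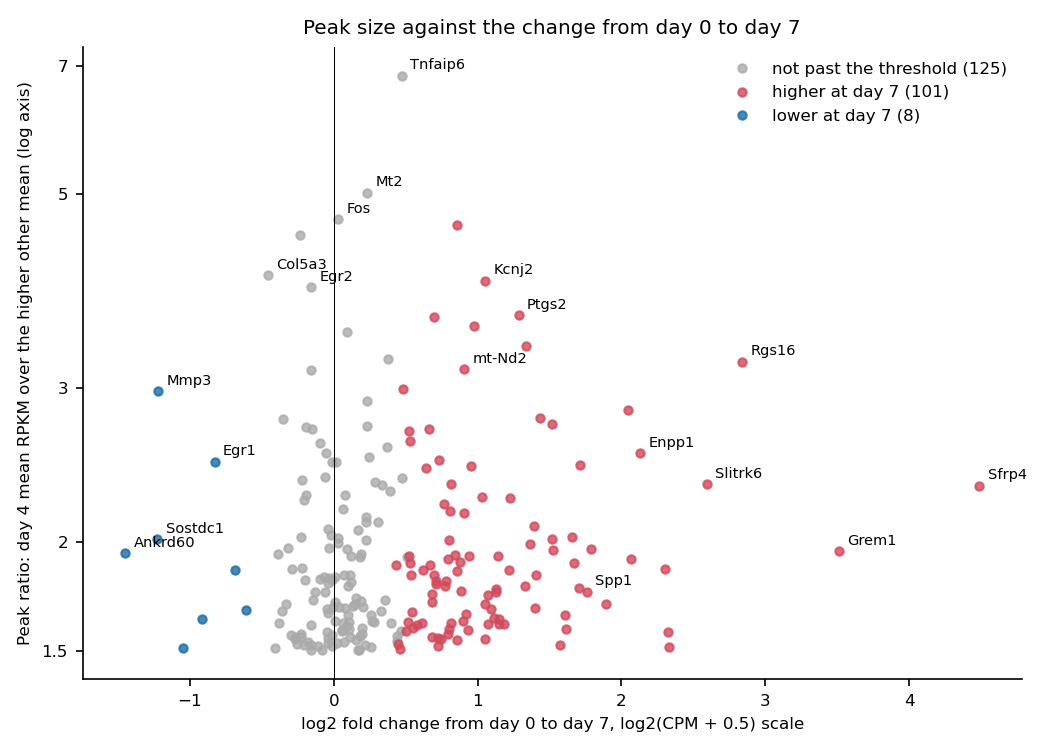
Peak ratio (log axis) against the log2 fold change from day 0 to day 7 for the 234 tested genes with a day 4 peak, coloured by the limma call at an adjusted p of 0.05. Sharp peaks are found both among genes that did not pass the threshold (grey), such as Tnfaip6, Mt2 and Fos, and among genes called higher, such as Ptgs2 and Kcnj2. The largest rises, Sfrp4 and Grem1, have peak ratios near 2.

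After Sfrp4 and Grem1, the largest rises to day 7 were those of signalling and adhesion genes. Rgs16, a regulator that shuts off G protein signalling, had 1.71, 1.22 and 0.883 RPKM at day 0, 26.6, 37.5 and 37.6 at day 4 and 14.8, 9.25 and 7.58 at day 7, with no overlap (log2 ratio of day 7 to day 0 = 2.84, standard error 0.22, limma adjusted p = 4.46e-15). Slitrk6, a membrane protein with leucine-rich repeats, averaged 0.196 ± 0.146 RPKM before differentiation, 3.82 ± 0.848 at day 4 and 1.64 ± 0.433 at day 7 (± SD over 3 libraries). Rgs11 and Stac2 reached day 4 means of 6.14 ± 1.67 and 4.69 ± 1.00 RPKM, and met the rule in 5 and 10 of the 12 settings. The potassium channel gene Kcnj2 had 0.943, 1.29 and 0.735 RPKM at day 0, 9.13, 6.70 and 9.43 at day 4 and 2.42, 2.15 and 1.77 at day 7, the sharpest peak among the 39 ion channel genes over the limit. With 3 libraries per stage the exact permutation test of a single gene cannot give a two-sided p below 0.1, and it gave 0.1 for Rgs16 and Kcnj2.

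The genes called lower were Egr1, Sostdc1, Mmp3, Sfrp1 and Ctgf, given above, with Olfm1, Ankrd60 and Pnck. Olfm1, a secreted glycoprotein, had 9.03, 11.6 and 10.5 RPKM at day 0, 16.2, 16.2 and 18.4 at day 4 and 6.55, 4.95 and 4.84 at day 7, and its day 7 libraries were all below those of day 0 (log2 ratio of day 7 to day 0 = −0.92, standard error 0.17, limma adjusted p = 3.26e-05). Ankrd60 had 3.63, 11.8 and 1.29 RPKM at day 7 against 11.3, 11.5 and 11.9 at day 0, so 1 of its day 7 libraries lay within the day 0 range, and its call ended with median-of-ratios and TMM scaling, edgeR and DESeq2. Pnck, a kinase gene, had 17.3, 13.2 and 23.9 RPKM at day 0, 37.6, 32.2 and 21.4 at day 4 and 8.73, 20.8 and 8.21 at day 7, so that day 0 overlapped both other stages, and its call ended in 11 of 18 alternatives. Counting did not state a strand, and 55 of the 244 genes have an exon that overlaps an exon of another gene on the opposite strand, so that their levels are uncertain. Among the genes named here these are Csrnp1, Tagln, Mt2, Ereg, Rgs16, Rgs11, Stc1, Dusp1, Dusp5, Zfp36, Junb, Fosl1, Ctgf, Eln, Mfap4, Slc20a1, Hsp90b1 and mt-Nd5. Levels of mt-Nd4, Fosl1 and Dusp5 are uncertain too, since 62.2%, 52.6% and 20.5% of their 50-base stretches occur in other transcripts.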

How the data were processed

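RNA of 9 libraries, 3 per stage, was sequenced after ribosomal RNA depletion. Per the labels and the study's methods, the authors demultiplexed with bcl2fastq, aligned to GRCm38 with STAR 2.0.4b and counted with featureCounts (given as version 1.45). The deposited tables hold CPM (counts scaled to the reads on genes of a library) and RPKM (also scaled to gene length), made by the authors, with day 4 in tables apart from days 0 and 7. The strand setting of the counting is not given in the sources used here.

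The tables were joined by gene identifier, 1 line per identifier. The day 4 peak rule was applied to mean RPKM. The genes, the lists and the tests were chosen with earlier results of these data known. Day 7 was compared with day 0 by limma 3.58.1 (R 4.3.3), with a trended prior, on log2(CPM + 0.5) of the 12712 genes that averaged 1 CPM or more, with Benjamini-Hochberg adjustment over all of them at 0.05. The prior contributed 42.9 degrees of freedom against 4 from the libraries. Fold changes on this scale understate changes of low genes. Alternatives used edgeR 4.0.16 and DESeq2 1.42.0 on whole reads recovered from CPM. The genes named were the 15 with the largest peak ratio, the 10 with the highest day 4 mean, the 6 with the largest rise and the 6 with the largest fall to day 7, up to 3 per list by peak ratio, the 3 on each side of the limit, the 3 with the widest day 4 spread, and up to 5 with overlapping libraries. Further genes of the immediate early, mitochondrial, collagen and chemokine lists, with Errfi1, Plau and Il1rl1, were chosen after their values were seen. The fits were first tested on simulated data. RefSeq promoters were searched for spelled motifs on both strands. With 3 libraries per stage the labels call biological replicates, p-values rest on the spread between these cultures. Given the prior, the limma p-values take that spread mostly from all genes together and less from a gene's own libraries. Depth per library was 7741204 to 37306090 reads on genes. Some items are not reported here.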

Additional observations from a re-analysis of the deposited data

How the results depend on the processing

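The number of genes with a day 4 peak followed the limits of the rule. It was 654 at the looser fold limit tried, 82 at a fold of 2, 1612 without the RPKM limit and 77 when every day 4 library had to reach 1.5 times each other library. Leaving out single libraries gave 226 to 283 genes, of which 217 to 241 were among the 244. Of the peak genes, 77 to 97 were higher at day 7 than at day 0 without single libraries, lowest without day 7 replicate 1, and 7 to 19 were lower, highest without day 0 replicate 3. The lower count was 18 with libraries scaled to protein-coding reads and 15 with day 0 replicate 3 and day 7 replicate 2 both left out, alternatives that were chosen after seeing the data. The causes were not tested. The median log2 ratio of day 7 to day 0 over all genes was −0.23 without day 0 replicate 3, against −0.11 with all libraries. With the replicate number as a block 96 were higher and 8 lower. Whether equal numbers mark paired samples is not given in the labels. The deviations of same-numbered libraries correlated at −0.02, −0.18 and −0.44. These values cannot decide it, since differences in library composition enter them as well. Direction was followed only for named genes called higher or lower in the main test, and none of those followed changed direction in these alternatives. Depth limits the low genes: Cwh43, Gipr, Cryba4 and Odaph never exceeded 3 reads at day 0, so no fold is given for them.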

Other observations

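Genes of other types met the same limits at day 4. They numbered 81, of which 26 were miRNA genes and 26 snoRNA genes, with 8 antisense RNAs, 4 mitochondrial tRNAs, 4 lincRNAs and 4 snRNAs. The level of H19, a long noncoding RNA of an imprinted locus, went from 1846 RPKM at day 0 to 5171 at day 4 and 3395 at day 7 on average. Of the 62 small RNA genes among the 81, 27 never exceeded 3 reads at day 0, and the median of their mean reads at day 4 was 19.7.

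Peak genes lay close together in 23 pairs within 100000 bp, 10 of them on the mitochondrial genome. Outside it the pairs include Cav1 and Cav2, caveolin genes 17220 bp apart, whose levels were not tested for shared regulation.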
